A study of Homo sapiens with 9 samples.

Results

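The genes described here encode the receptors for glutamate, GABA and acetylcholine at its nicotinic sites. They were chosen by symbol, as the autosomal protein-coding genes whose names fit a pattern of the AMPA (GRIA), kainate (GRIK), NMDA (GRIN) and delta (GRID) glutamate receptors, the metabotropic glutamate receptors (GRM), or the GABA-A (GABR), GABA-B (GABBR) and nicotinic (CHRN) subunits. For GABA-A the pattern asks for a letter and a digit after the stem, which leaves out GABRD and GABRP. The pattern found 59 of 19229 genes. Of these, 57 are receptor genes. The other two are GRID2IP, a scaffold protein that binds the delta receptor, and GRIK1-AS2, which is named as an antisense gene of GRIK1 and lies inside it. Histone marks over these genes were compared between mdig KO and WT BEAS-2B cells.

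BEAS-2B is an immortalized line of human bronchial epithelial cells. The KO cells came from colonies without mdig protein after CRISPR-Cas9 targeting of exon 3 of its gene, RIOX2, with the vector pSpCas9-2A-Blast and blasticidin selection. The WT cells came from colonies that went through the same vector and selection and kept mdig, and blasticidin was in the growth medium of both. Whether each genotype is 1 clone is not stated, so a difference between genotypes and a difference between colonies cannot be told apart. ChIP-seq was done once per genotype for H3K4me3, H3K27me3, H3K9me3 and H3R8me2a, which gives 8 ChIP libraries. The input library, of WT cells, was not analysed here.

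Each library was deposited as islands, stretches of enriched reads with a start and an end and no height, so depth is unknown and no error can be given for a gene. With 1 library per mark and genotype there was no test, and every value below compares 2 libraries. The KO libraries held 17503 H3K4me3, 22633 H3K27me3, 32264 H3K9me3 and 9511 H3R8me2a islands, against 17219, 23394, 12094 and 6871 in WT. They covered 102.1, 341.6, 194.9 and 100.4 Mb in KO, in the same order of marks, and 88.8, 256.1, 52.8 and 62.3 Mb in WT, so that every KO library covered more of the genome, and H3K9me3 did so by a factor of 3.69. At RIOX2 itself, H3K4me3 covered 3.8 kb in KO and 3 kb in WT, and neither library had an H3K27me3 or H3K9me3 island. The islands hold no reads and do not check the edit. An H3K4me3 island stood within 2 kb of the start of KRT8, KRT18, EPCAM and CDH1 in both genotypes, 4 of 6 epithelial markers (not of KRT19 and KRT5), of 3 of 3 mesenchymal markers, and of 0 of 4 leukocyte markers. Of 6 neuronal markers, SNAP25 and SYT1 had such an island in both genotypes and STMN2 in WT alone.

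Glutamate and GABA are the main excitatory and inhibitory transmitters of the brain. AMPA, kainate, NMDA, GABA-A and nicotinic receptors are ion channels built of several subunits, while metabotropic glutamate and GABA-B receptors act through G proteins. Most of these genes are used mainly by neurons or muscle, although airway epithelial cells make some nicotinic subunits. H3K4me3 marks active or poised promoters. H3K27me3, laid down by the Polycomb complex PRC2, covers developmental and neuronal genes in cells that do not use them, often at promoters rich in CpG. H3K9me3 is the mark of constitutive heterochromatin, and H3R8me2a is an asymmetric methylation of an arginine of the same tail.

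Promoter sequences are shown first for 5 genes whose islands at the promoter were found in 1 genotype alone. CHRNA3, CHRNB4 and GABRA4 had an H3K4me3 island over the window in WT alone. GABRB1 and GRIA4 had H3K4me3 there in both genotypes and H3K27me3 in KO alone. The sequences are RefSeq promoter windows of 300 bases around the transcription start, taken from a table built on GRCh38 and placed by exact match in GRCh37, the build of the islands. They are written 5′ to 3′ on the strand of the gene, with CG dinucleotides in capitals, because CpG density goes with both promoter marks. The window of CHRNA3 lies at chr15:78913289-78913588 on the minus strand and holds 31 CpG. That of CHRNB4 lies at chr15:78933503-78933802 on the minus strand with 27 CpG. That of GABRA4 lies at chr4:46995549-46995848 on the minus strand with 32 CpG. The window of GABRB1 is the poorest of the 5 in CpG, with 10, and lies at chr4:47033334-47033633 on the plus strand. That of GRIA4, with 26 CpG, lies at chr11:105481183-105481482 on the plus strand.
CHRNA3: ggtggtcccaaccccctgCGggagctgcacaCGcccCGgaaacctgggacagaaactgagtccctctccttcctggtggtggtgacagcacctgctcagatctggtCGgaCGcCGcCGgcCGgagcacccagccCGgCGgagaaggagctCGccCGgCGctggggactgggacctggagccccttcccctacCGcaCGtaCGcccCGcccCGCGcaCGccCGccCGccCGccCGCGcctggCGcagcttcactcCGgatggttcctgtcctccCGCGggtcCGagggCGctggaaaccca
CHRNB4: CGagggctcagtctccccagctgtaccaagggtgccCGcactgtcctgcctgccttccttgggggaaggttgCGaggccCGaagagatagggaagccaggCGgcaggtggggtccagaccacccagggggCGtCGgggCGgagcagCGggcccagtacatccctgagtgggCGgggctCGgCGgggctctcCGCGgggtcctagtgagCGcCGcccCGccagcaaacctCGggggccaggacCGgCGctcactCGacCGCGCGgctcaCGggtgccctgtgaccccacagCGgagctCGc
GABRA4: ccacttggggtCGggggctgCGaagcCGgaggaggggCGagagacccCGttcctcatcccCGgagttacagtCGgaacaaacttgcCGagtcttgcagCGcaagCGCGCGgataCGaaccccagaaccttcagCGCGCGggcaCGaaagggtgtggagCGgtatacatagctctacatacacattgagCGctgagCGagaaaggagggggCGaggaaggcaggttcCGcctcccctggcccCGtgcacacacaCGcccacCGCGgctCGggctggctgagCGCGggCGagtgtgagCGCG
GABRB1: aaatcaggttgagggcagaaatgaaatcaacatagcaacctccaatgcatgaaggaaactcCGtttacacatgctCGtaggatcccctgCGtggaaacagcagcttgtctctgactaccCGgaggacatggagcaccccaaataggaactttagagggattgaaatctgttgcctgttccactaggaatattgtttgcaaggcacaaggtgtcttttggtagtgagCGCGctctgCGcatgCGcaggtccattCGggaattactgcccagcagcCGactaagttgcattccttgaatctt
GRIA4: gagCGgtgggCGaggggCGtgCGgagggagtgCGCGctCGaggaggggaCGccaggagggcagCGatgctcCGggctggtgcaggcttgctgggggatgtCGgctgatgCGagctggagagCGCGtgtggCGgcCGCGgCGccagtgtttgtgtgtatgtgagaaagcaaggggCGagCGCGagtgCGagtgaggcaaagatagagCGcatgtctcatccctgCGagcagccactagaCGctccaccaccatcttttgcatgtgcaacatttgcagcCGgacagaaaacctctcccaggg

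The RefSeq table held 43 of the 59 genes, and all 43 windows were placed. Their median was 14 CpG, and that of all 35116 windows of the table was also 14. The table held 14596 autosomal coding genes, so the set of all its windows is not matched to these genes. Of the 43 windows, the 28 under H3K27me3 in KO had a median of 16 CpG and the other 15 had 6. For the WT islands the medians were 21 CpG in 25 windows under H3K27me3 and 8.5 CpG in the other 18. The GC box, GGGCGG on either strand, was found in 21 windows (48.8%, against 45.0% of all windows), and TATAAA on either strand in 3 (6.98%, against 11.5%). The core of the element bound by REST, a repressor of neuronal genes, was searched on both strands and matched 0 of 43 windows, against 0.0513% of all windows. A match is a description of the letters and not of binding.

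At the gene start, read as the window of 2 kb on both sides of the GENCODE start, these genes mostly carried H3K27me3 and seldom H3K4me3. An H3K27me3 island stood there in 36 genes in KO and 31 in WT, or 61.0% of the 59 in KO and 52.5% in WT, while over all 19229 genes the shares were 21.4% in KO and 20.4% in WT. An H3K4me3 island stood there in 11 genes in KO and 15 in WT (18.6% in KO and 25.4% in WT), against 65.3% of all genes in KO and 65.6% in WT. Counting the start of any coding transcript gave 15 genes with H3K4me3 in KO and 18 in WT (all genes, 69.4% in KO and 69.8% in WT). The same count for H3K27me3 was 43 in KO and 38 in WT (all genes, 23% in KO and 22.1% in WT). Both marks stood at the start of 6 genes in KO and 9 in WT, and H3K4me3 without H3K27me3 at 5 in KO and 6 in WT. H3K27me3 without H3K4me3 stood at 30 in KO and 22 in WT, and neither mark at 18 in KO and 22 in WT. Over all genes, both marks were at 8.34% of starts in KO and 8.62% in WT, H3K4me3 without H3K27me3 at 57% in each, H3K27me3 without H3K4me3 at 13.1% in KO and 11.8% in WT, and neither at 21.6% in KO and 22.6% in WT. These states use the GENCODE start alone, and of the 43 RefSeq starts placed, 28 lay within 2 kb of it. Some genes with neither mark there, such as GRIK2 and CHRNA7, had H3K27me3 over the whole RefSeq promoter window in both genotypes. The islands are of a cell population, so marks on the same nucleosomes and marks on different cells or alleles cannot be told apart.

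**Figure D1:**
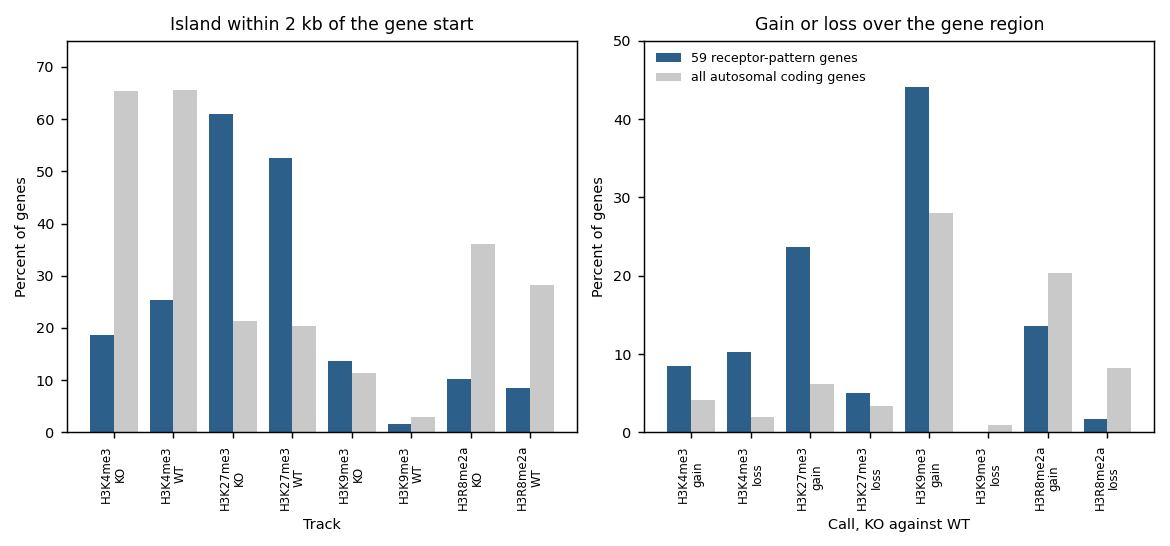
Percent of genes with an island within 2 kb of the gene start in each track (left) and percent called a gain or a loss over the gene region in each mark (right). Blue bars are the 59 receptor-pattern genes and gray bars all 19229 autosomal coding genes. The blue bars stand above the gray ones for H3K27me3 at the start and for gain of H3K27me3 and H3K9me3, and below them for H3K4me3 and H3R8me2a at the start.

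Between genotypes, the H3K4me3 start islands found in 1 genotype alone were in WT. In 4 genes the H3K4me3 island was in WT alone (6.78%, against 1.53% of all genes) and in 0 in KO alone (all genes, 1.25%). In the 11 genes with one in both genotypes, it covered more of the start window in KO in 3, less in 7 and the same in 1. GRM8, a metabotropic receptor gene, was among the 3, with 4.00 kb in KO and 3 kb in WT. The 4 genes with an island in WT alone were CHRNA3, GABRA4, GABRB1 and GRIN2C, and all 4 had an H3K27me3 island at the start in both genotypes. They are 3 sites, since GABRA4 and GABRB1 share a start. The change from both marks in WT to H3K27me3 alone in KO was thus seen in 6.78% of these genes, against 0.978% of all genes. An H3K27me3 island stood at the start in KO alone in 6 genes (10.2%, against 2.9% of all genes): GABRG1, GRM6, GABRR1, GRIA4, GRIK4 and GRIK1-AS2. It stood there in WT alone in 1, GABBR1 (1.69%, against 1.88%), where it covered 0 kb of the 4-kb window in KO and 0.648 kb in WT. In GABRR1, GRIK4 and GRIK1-AS2, the KO islands lay beside the start and covered 0 bases of the RefSeq promoter window. For GABRR1 that window lies 13501 bases from the GENCODE start.

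CHRNA3, CHRNA5 and CHRNB4 lie next to each other on chromosome 15 and encode subunits of the nicotinic receptor of autonomic ganglia, at a locus known for its association with nicotine dependence. CHRNA3 (ENSG00000080644.16_11, chr15:78885394-78913637, minus strand) encodes the alpha subunit that pairs with the beta subunit of CHRNB4. Its WT H3K4me3 island ran from 78911001 to 78914400, over the promoter printed above, and covered 2.76 kb of the start window, while the KO library had none. H3K27me3 covered 4.00 kb of that window in both genotypes. Over the gene body and 5 kb upstream, CHRNA3 held 0 kb of H3K4me3 in KO and 3.4 kb in WT, and 13.6 kb of H3K27me3 in KO and 13.2 kb in WT. CHRNB4 (ENSG00000117971.12_9) likewise had a promoter island in WT alone, with 0 kb of H3K4me3 in KO and 2.4 kb in WT. That island, from 78932201 to 78934600, covered the RefSeq promoter, which lies 86544 bases inside the start annotated by GENCODE, so it is not counted among the starts above. CHRNA5, the accessory alpha subunit, kept its island, with 4.2 kb of H3K4me3 in KO and 3.8 kb in WT and no island of another mark. Of the 3 neighbours, CHRNB4 alone had H3K9me3, 9.8 kb in KO and 1.2 kb in WT. These H3K9me3 islands lay upstream of the RefSeq promoter of CHRNB4, between it and the GENCODE start.

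GABRA4 and GABRB1, an alpha and a beta subunit of the GABA-A channel, start 0.142 kb apart on opposite strands of chromosome 4 and share the islands there. A WT H3K4me3 island from 46995401 to 46997600 covered both starts and had no counterpart in KO. H3K27me3 lay over both starts in both genotypes, from 46993401 to 46997600 in KO and from 46992201 to 46997800 in WT. GABRB1 has a further promoter, the RefSeq one printed above, 37844 bases into the gene. There H3K4me3 was found in both genotypes, 1.8 kb long in KO and 2.4 kb in WT, and an H3K27me3 island of 8.8 kb in KO alone. Over the whole region GABRB1 held 16.8 kb of H3K27me3 in KO and 5.6 kb in WT, a gain. GABRA4 held 4.2 kb in KO and 9.2 kb in WT, a loss: a WT island of 3.6 kb inside the gene had no counterpart in KO, and that at the start was shorter in KO.

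GRIN2C rests on less: the WT island was 12.8 kb long, lay upstream of this NMDA subunit gene, and reached only 0.227 kb into its start window. GRIA4 and GRIK4 had H3K4me3 in the start window in both genotypes and H3K27me3 there in KO alone. GRIA4, an AMPA subunit (chr11:105480262-105852817, plus strand), had 1.8 kb of H3K4me3 in its start window in KO and 2.06 kb in WT, and 2.26 kb of H3K27me3 in KO and 0 kb in WT. GRIK4, a high-affinity kainate subunit (chr11:120382455-120859615, plus strand), had there 2.8 kb of H3K4me3 in KO and 3.86 kb in WT, and 3.2 kb of H3K27me3 in KO and 0 kb in WT. The KO H3K27me3 islands of GRIK4 lay on both sides of the start, which fell in a gap between them. Over RefSeq promoter windows instead of GENCODE starts, H3K4me3 was found in 10 of 43 genes in KO and 14 in WT (23.3% in KO and 32.6% in WT), with CHRNA3, CHRNB4, GABRA4 and GRID2IP in WT alone. H3K27me3 was found over 28 windows in KO and 25 in WT (65.1% in KO and 58.1% in WT). Over the windows of 14347 autosomal coding genes placed in the same way, the shares were 68.7% in KO and 69% in WT for H3K4me3, and 17% in KO and 15.9% in WT for H3K27me3.

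**Figure D2:**
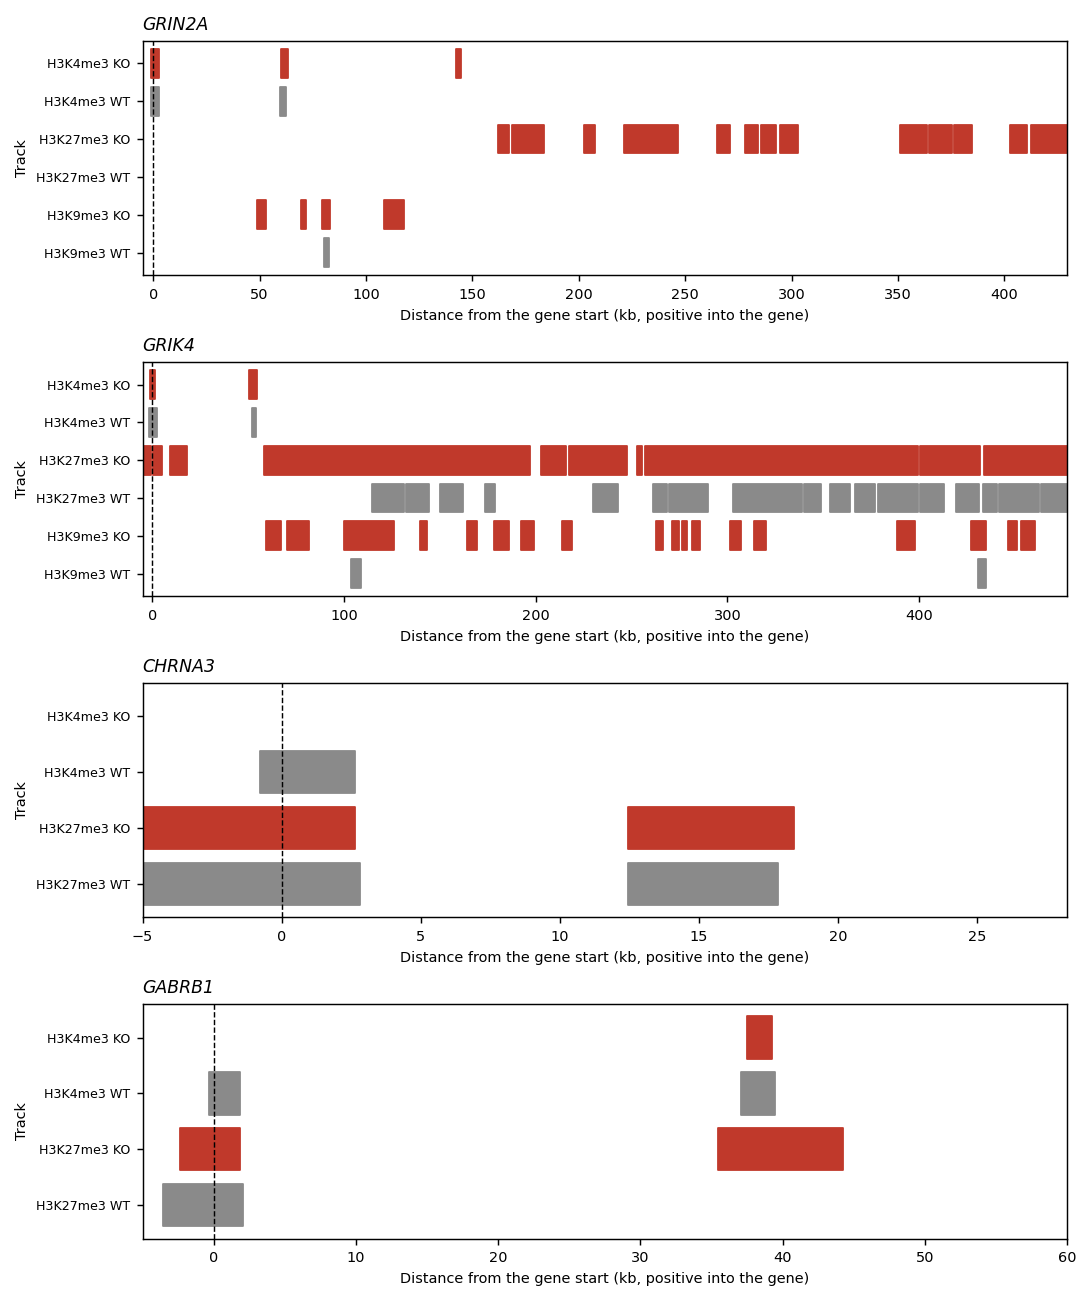
Islands of H3K4me3, H3K27me3 and, for GRIN2A and GRIK4, H3K9me3 along 4 genes in KO (red) and WT (gray), by distance in kb from the gene start (dashed line), positive into the gene. The first 3 panels show the region from 5 kb upstream to the end of the gene, and that of GABRB1 only its first 60 kb. CHRNA3 and GABRB1 have an H3K4me3 island over the start in WT and none in KO, and the H3K27me3 islands inside GRIN2A are in KO alone.

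Over the gene region, the body with 5 kb upstream, a gain was called where the covered length in KO was 2 or more times that in WT and exceeded it by 1 kb or more, and a loss in the opposite case. The regions of these genes are long, with a median of 87.3 kb (10.8 to 1511 kb), against 32.6 kb for all genes. H3K27me3 was called a gain in 14 genes (23.7%, against 6.16% of all genes) and a loss in 3 (5.08%, against 3.39%). It was found somewhere over 48 of 59 genes in KO and 44 in WT (all genes, 28.2% in KO and 27.6% in WT). The median share of the region covered was 6.81% in KO and 3.86% in WT, with a median difference of 1.25 percentage points, and the medians of all genes were 0. With the KO library scaled to the total length of WT, there were 11 gains and 4 losses (18.6% and 6.78%, against 4.64% and 4.06% of all genes) and the median difference was 0. Gene length moves with this call: among regions of 200 kb or more, 10 of 22 members were gains (45.5%, against 15.7% of all genes of that length), and under 50 kb 2 of 20 (10%, against 4.66%). The part of length in the call beyond these strata was not tested.

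H3K9me3 was called a gain in 26 genes (44.1%, against 28% of all genes) and a loss in 0 (all genes, 0.884%). It was found over 30 genes in KO and 11 in WT (all genes, 37.2% in KO and 17.7% in WT), and its summed length over the 59 regions was 451.8 kb in KO and 70.8 kb in WT. The KO library covered more of the whole genome too, and a spread of the mark and a more sensitive library cannot be told apart by the islands. Scaled to the total length of WT, the KO library gave 17 gains and 4 losses, against gains in 13.7% and losses in 8.15% of all genes. By length, 9 of 20 members under 50 kb were gains (45%, against 18.5% of all genes of that length), 6 of 17 from 50 to 200 kb (35.3%, against 40.3%), and 11 of 22 of 200 kb or more (50%, against 59.2%). Of the 3 length groups, only that under 50 kb had a higher share among these genes than among all genes. H3R8me2a, found at the start of 6 genes in KO and 5 in WT (all genes, 36.1% in KO and 28.3% in WT), gave 8 gains (13.6%, against 20.4% of all genes) and 1 loss (1.69%, against 8.28%), and H3K4me3 gave 5 gains (8.47%, against 4.19%) and 6 losses (10.2%, against 1.99%).

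**Figure D3:**
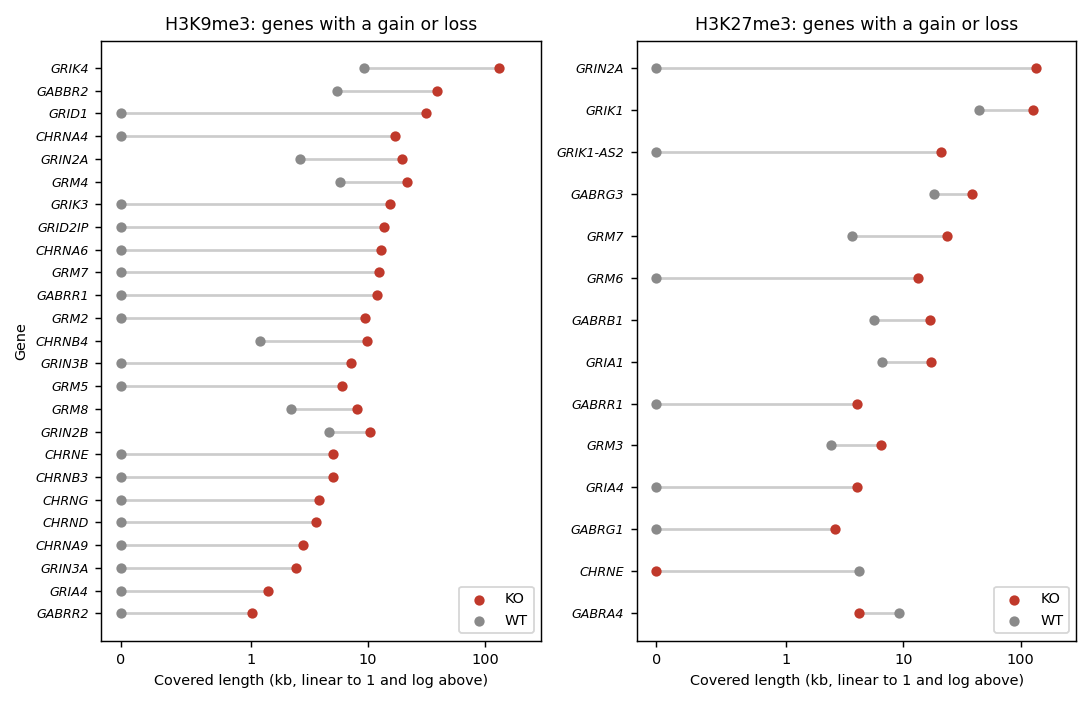
Covered length of H3K9me3 (left) and H3K27me3 (right) in kb over the gene region in KO (red) and WT (gray), for 25 receptor-pattern genes called a gain or a loss of H3K9me3 and 14 of H3K27me3. The axis is linear up to 1 kb and logarithmic above. All 25 H3K9me3 genes and 12 of the 14 H3K27me3 genes shown lie higher in KO, and CHRNE and GABRA4 lie lower for H3K27me3.

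The AMPA receptors, which carry fast excitatory transmission, had no call in any mark in 1 of 3 genes (all genes, 44.8%). GRIA1 held 17.2 kb of H3K27me3 in KO and 6.6 kb in WT, and GRIA4 held 4.0 kb in KO and 0 kb in WT, both gains. GRIA2, whose edited subunit makes the channel impermeable to calcium, held 3.6 kb of H3K27me3 in both genotypes and 3.8 kb of H3K4me3 in KO and 3.6 kb in WT. None of it lay at the GENCODE gene start, but both marks stood at the start of another coding transcript in both genotypes. The RefSeq promoter, 15938 bases into the gene, was under H3K27me3 over all 300 bases in both, and under H3K4me3 over 121 bases in KO and 300 in WT. GRIA4 also had 1.4 kb of H3K9me3 in KO and 0 kb in WT.

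Among the kainate receptors, GRIK4 had the largest difference in H3K9me3 and in H3K27me3 of the 59 genes. H3K9me3 covered 131.4 kb of its 482.2-kb region in KO and 9.2 kb in WT, and H3K27me3 420.8 kb in KO and 240.2 kb in WT, which is 87.3% of the region in KO and 49.8% in WT and short of the factor of 2. H3R8me2a covered 15.8 kb of it in KO and 0 kb in WT. GRIK1, on chromosome 21, held 126.6 kb of H3K27me3 in KO and 44 kb in WT, and 20.8 kb of the KO islands lay over GRIK1-AS2 within it, where WT had 0 kb. GRIK3 was covered by H3K27me3 nearly throughout, 229 kb in KO and 211.2 kb in WT, and gained H3K9me3, 15.4 kb in KO and 0 kb in WT. That gain reached its start window, with 1.49 kb in KO. GRIK2 held 14.8 kb of H3K27me3 in KO and 14.2 kb in WT and no other island. GRIK5, a high-affinity subunit like GRIK4, was the H3K4me3 gain that was largest in kb, 9.96 kb in KO and 4.76 kb in WT, with none at its start. It also held 21.2 kb of H3R8me2a in KO and 4.56 kb in WT.

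NMDA receptors need the GRIN1 subunit, which binds glycine, together with GRIN2 subunits that bind glutamate. GRIN1 was under H3K27me3 over 94.9% of its region in KO and 85.3% in WT, and gained H3R8me2a, 13.4 kb in KO and 0 kb in WT. GRIN2A (chr16:9847261-10276785, minus strand) was the largest H3K27me3 gain called, with 136.1 kb in KO and 0 kb in WT. Of these islands, the nearest to the start began 161.985 kb into the gene. Its GENCODE start kept H3K4me3 without H3K27me3 in both genotypes, with 3.02 kb in the window in KO and 3.22 kb in WT. In KO alone, H3K27me3 stood within 2 kb of the start of another coding transcript of the gene. H3K9me3 over GRIN2A covered 19.4 kb in KO and 2.6 kb in WT. GRIN2B held 191.5 kb of H3K27me3 in KO and 136.0 kb in WT, not a call, and 10.4 kb of H3K9me3 in KO and 4.6 kb in WT, a gain that turned to a difference of -1.78 kb with the KO library scaled to the length of WT. GRIN2D, with both promoter marks at the start in both genotypes, differed by at most 0.4 kb over the whole region in any mark. Its start window differed more, with 3.88 kb of H3K4me3 in KO and 2.28 kb in WT. H3R8me2a covered 0.276 kb of that window in KO and 1.08 kb in WT. GRIN2C and GRIN3B had the H3K4me3 losses of this family, 0 kb in KO and 3.23 kb in WT for GRIN2C and 0 kb in KO and 2.18 kb in WT for GRIN3B, both from islands upstream of the gene. GRIN2C also held 14.9 kb of H3R8me2a in KO and 22.3 kb in WT, not a call. GRIN3B, a glycine-binding subunit, held 7.11 kb of H3K9me3 in KO and 0 kb in WT, and GRIN3A, the other such subunit, 2.4 kb in KO and 0 kb in WT.

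The delta receptors, such as GRID1, belong to the same family by sequence but are not opened by glutamate, and join synapses by binding cerebellins. GRID1 held 31.0 kb of H3K9me3 in KO and 0 kb in WT, under broad H3K27me3 of 352.8 kb in KO and 311.8 kb in WT. GRID2IP had 13.7 kb of H3K9me3 in KO and 0 kb in WT, which filled its start window, and 10.6 kb of H3R8me2a in KO and 0 kb in WT.

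Among the 8 metabotropic glutamate receptors, H3K9me3 was a gain in 5 (all genes, 28%), H3K27me3 in 4 (all genes, 6.16%) and H3K4me3 in 3 (all genes, 4.19%). Their regions run from 16.5 to 976.5 kb. Of all genes with regions of 200 kb or more, 59.2% were gains of H3K9me3, 15.7% of H3K27me3 and 7.44% of H3K4me3. In group I, which acts through phospholipase C, GRM5 held 6.0 kb of H3K9me3 in KO and 0 kb in WT and 2.0 kb of H3K4me3 in KO and 0 kb in WT. In group II, which lowers cAMP, GRM3 held 6.4 kb of H3K27me3 in KO and 2.4 kb in WT. GRM2, the other group II receptor, held 9.4 kb of H3K9me3 in KO and 0 kb in WT on a gene under H3K27me3 over 86.0% of its region in KO and 76.3% in WT. The group III receptors GRM4, GRM7 and GRM8 are presynaptic, and each was a gain of H3K9me3. GRM4 held 21.4 kb in KO and 5.8 kb in WT, GRM7 held 12.4 kb in KO and 0 kb in WT, and GRM8 held 8.0 kb in KO and 2.2 kb in WT. With the KO library scaled to the length of WT, the sign turned round in GRM4 and GRM8, to differences of -0.011 and -0.0342 kb. GRM7 also held 23.6 kb of H3K27me3 in KO and 3.6 kb in WT. GRM6, the receptor of retinal ON bipolar cells, was the only gene with H3K9me3 at its start in WT, and H3K9me3 covered 100% of its region in KO and 96.6% in WT. On that background H3K27me3 covered 13.2 kb in KO and 0 kb in WT.

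**Figure D4:**
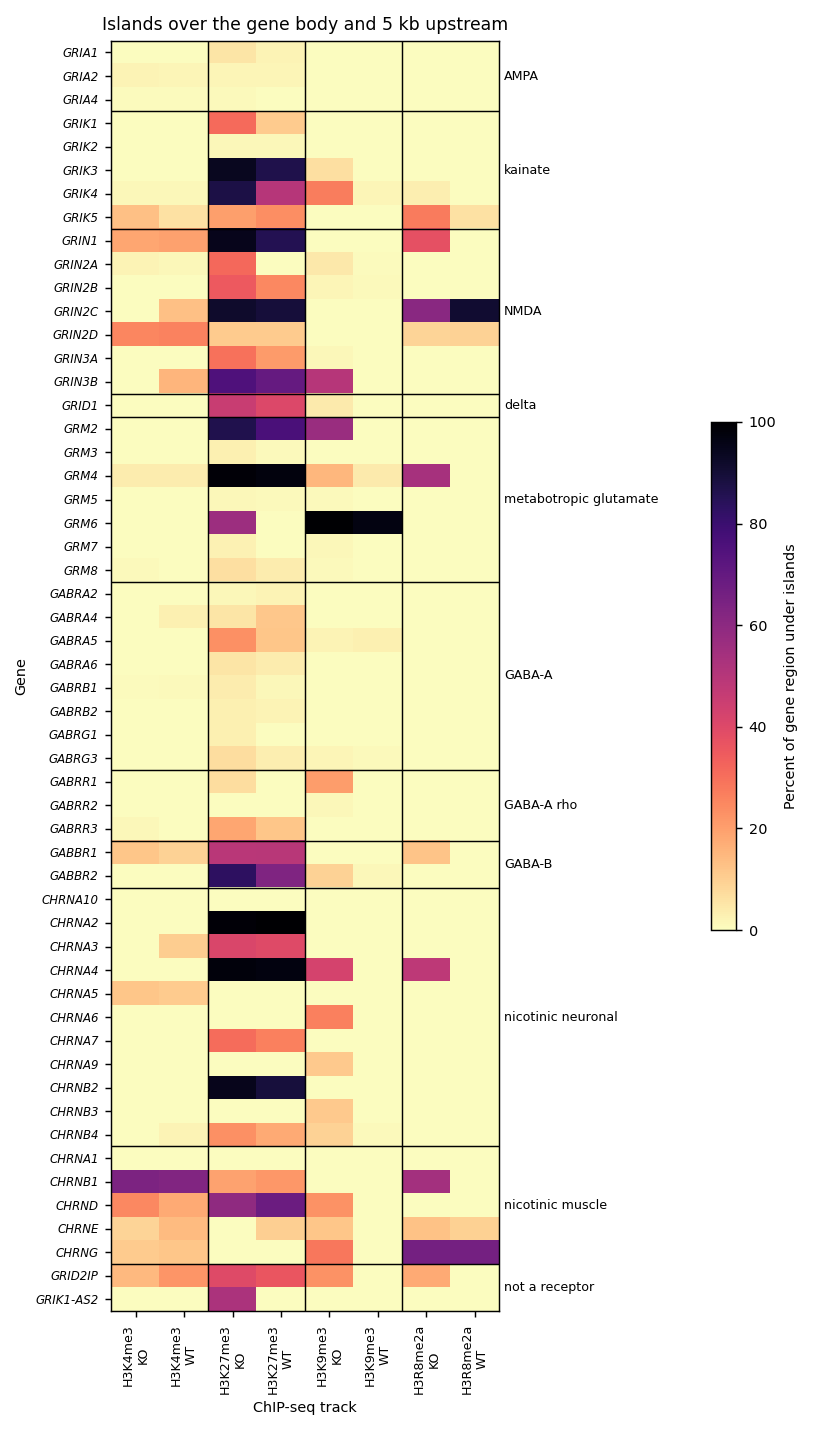
Percent of the gene region (body and 5 kb upstream) under islands of each mark in KO and WT, for 54 of the 59 genes, grouped by receptor family. Rows are genes, columns are the 8 libraries, and darker cells are more covered. GRIK3, GRM4, CHRNA2 and CHRNA4 are under H3K27me3 over most of their length in both genotypes, GRM6 under H3K9me3, and the H3K9me3 columns of the GABA-A alpha, beta and gamma genes are nearly empty.

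The GABA-A alpha, beta and gamma subunits, which form the chloride channel targeted by benzodiazepines, had 0 gains of H3K9me3 in 11 genes (all genes, 28%). H3K9me3 was found over 3 of them. Of the genes on chromosome 15, GABRA5 held 1.8 kb in KO and 2.6 kb in WT, and GABRG3 held 9.0 kb in KO and 5.4 kb in WT. H3K27me3 was a gain in 4 of the 11 (all genes, 6.16%) and a loss in 1 (all genes, 3.39%). Besides GABRB1, the gains included GABRG3 with 38.6 kb in KO and 18.2 kb in WT and GABRG1 with 2.6 kb in KO and 0 kb in WT at its start. GABRG3 lies just inside the factor of 2 and GABRA5, with 20.4 kb in KO and 10.4 kb in WT, just outside it. On chromosome 5, GABRB2 and GABRA6 share their start island, 8.2 kb of H3K27me3 in KO and 6.2 kb in WT. For GABRA6 it stood at the GENCODE gene start only, and no start of a coding transcript lay within 2 kb of it. The RefSeq promoter of GABRA6, 138658 bases into the gene, had 0 bases under H3K27me3 in both genotypes. GABRA2 held 3.2 kb of H3K27me3 in KO and 5.2 kb in WT.

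The rho subunits form GABA channels of the retina. GABRR1 held 12 kb of H3K9me3 in KO and 0 kb in WT, and 4.0 kb of H3K27me3 in KO and 0 kb in WT, both gains. GABRR2 passed the minimum difference narrowly, with 1.02 kb of H3K9me3 in KO and 0 kb in WT. GABRR3 held 10.2 kb of H3K27me3 in KO and 6.6 kb in WT, not a call. The GABA-B receptor is a pair of GABBR1, which binds GABA, and GABBR2, which couples to the G protein. GABBR2 held 38.8 kb of H3K9me3 in KO and 5.4 kb in WT within H3K27me3 of 352.8 kb in KO and 269.2 kb in WT. GABBR1 kept H3K4me3 at its start, 3.25 kb of the window in KO and 2.45 kb in WT, and gained H3R8me2a, 10.4 kb in KO and 0 kb in WT, of which 1.85 kb lay in the start window.

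The neuronal nicotinic subunits had 5 gains of H3K9me3 in 11 genes (all genes, 28%). H3K27me3 was called in 0 of the 11, where gains made up 6.16% and losses 3.39% of all genes. CHRNA4, the main alpha subunit of the brain, held 17.0 kb of H3K9me3 in KO and 0 kb in WT, of which 3.75 kb lay in the start window. It was under H3K27me3 over 98.0% of its region in KO and 97.0% in WT, and held 19.4 kb of H3R8me2a in KO and 0 kb in WT. CHRNB2, the beta subunit it pairs with, was also under H3K27me3, over 94.8% of its region in KO and 89.0% in WT, and had no island of another mark. CHRNA6 and CHRNB3, expressed together in dopamine neurons, lie side by side on chromosome 8 and had no H3K27me3. CHRNA6 held 12.8 kb of H3K9me3 in KO and 0 kb in WT, with 1.4 kb in the start window, and CHRNB3 held 5.0 kb in KO and 0 kb in WT. CHRNA9, of cochlear hair cells, held 2.8 kb of H3K9me3 in KO and 0 kb in WT, while CHRNA10, its partner, had no island. CHRNA2 held 24.8 kb of H3K27me3 in KO and 25.1 kb in WT. CHRNA7, which forms channels of 1 kind of subunit, held 77.6 kb of H3K27me3 in KO and 67.0 kb in WT, a value that is uncertain because part of the gene is copied in CHRFAM7A.

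The muscle subunits make the receptor of the neuromuscular junction, with CHRNG in the fetal and CHRNE in the adult form. H3K9me3 was a gain in 3 of 5 (all genes, 28%): CHRNE held 5.0 kb in KO, CHRNG 3.8 kb and CHRND 3.58 kb, against 0 kb in WT for each. The gains of CHRND and CHRNG come from the same KO island, 5.4 kb long, so they are not separate sites. CHRNE held 0 kb of H3K27me3 in KO and 4.2 kb in WT, a loss. CHRNG held 8.83 kb of H3R8me2a in both genotypes. CHRND, next to CHRNG on chromosome 2, had both promoter marks in its start window in both genotypes. The H3K4me3 of CHRND was only the edge of an island upstream of the start. In both genotypes it covered 0 bases of the RefSeq promoter window. CHRNB1 had both promoter marks in its start window in both genotypes and held 9.65 kb of H3R8me2a in KO and 0 kb in WT. The H3K27me3 of CHRNB1 was likewise an edge, 0.421 kb of the window in KO and 0.821 kb in WT. It covered 0 bases of the RefSeq promoter window in both. CHRNA1, the alpha subunit, had no island of any mark. Islands over short genes such as CHRNE, CHRNB1 and GRIN2C can belong to a neighbour, since they extended beyond the gene.

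H3K9me3 at the gene start was found in 8 genes in KO and 1 in WT (13.6% in KO and 1.69% in WT, against 11.3% of all genes in KO and 2.94% in WT). It was in KO alone in 7 (11.9%, against 8.45% of all genes): GRID2IP, CHRNA4, GRIK3, CHRNA6, CHRNG, GRM4 and GRM2. The overlap with the 4-kb window ran from 4.00 kb in GRID2IP down to 0.799 kb in CHRNG and GRM4 and 0.084 kb in GRM2, so the last is an edge of an island. Of the 7, GRIK3, GRM2, GRM4 and CHRNA4 were also under H3K27me3 at the start in both genotypes. For CHRNA4, no start of a coding transcript lay within 2 kb of its H3K9me3 islands. Over the RefSeq promoter windows, 3 of 43 had H3K9me3 in KO (6.98%, against 6.94% of all windows placed), none among the 7. They were GRM6, in both genotypes, and GRM7 and CHRNE, in KO alone, with 57 bases in CHRNE.

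New H3K9me3 in KO, the bases under an island in KO and not in WT, came to 387.8 kb over these genes, and 63.6% of it lay under H3K27me3 of KO and 47.4% under H3K27me3 of WT. Over all gene regions the shares were 32.6% under H3K27me3 of KO and 28.9% under that of WT. H3K27me3 itself covered 18.9% of the member regions in KO and 13.4% in WT, against 12.1% of all gene regions in KO and 9.53% in WT. GRIK4 carried 122.2 kb of the difference in H3K9me3, and without GRIK4 the shares were 48.2% under H3K27me3 of KO and 44.6% under that of WT. None of the new H3K9me3 lay under H3K4me3 of KO (0%, against 3.37% over all genes), which covered 0.879% of the member regions and 6.66% of all gene regions. New H3R8me2a came to 174.1 kb, 68.2% of it under H3K27me3 of KO, against 13.9% over all genes. GRM4, a gene under H3K27me3 nearly throughout, held 76.2 kb of H3R8me2a in KO and 0 kb in WT, the largest H3R8me2a gain of the 59 genes, and without GRM4 the share was 43.4%.

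Along the genes, H3K27me3 was densest before the start. It covered 44.4% of the 5 kb upstream in KO and 32.7% in WT. With the body cut into 3 parts of equal length, it covered 21.3% of the first in KO and 16.6% in WT, 16.7% of the middle in KO and 9.84% in WT, and 17.5% of the last in KO and 12.7% in WT. Over all genes the upstream share was 17.7% in KO and 15.7% in WT. H3K4me3 covered 8.88% of the upstream bases in KO and 11.3% in WT, and the summed length over the regions was 122.7 kb in KO and 120.8 kb in WT. Of the 5 H3K4me3 gains, GRM5 and GRM7 had islands in KO alone far inside the gene, GRM8 a longer island at the start and a short one inside, and GRIK5 a longer one inside. The GRM7 island of 3.6 kb lay 434.9 kb from the start.

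Calls of gain of H3K9me3 or H3K27me3 or of loss of H3K4me3 came together to 39 of the 59 genes (66.1%, against 32.8% of all genes). That comparison takes no account of gene length, and genes that share an island, such as CHRND and CHRNG, are each counted. Of the 59, 4 genes gained both H3K9me3 and H3K27me3 (6.78%, against 2.44% of all genes): GRM7, GABRR1, GRIA4 and GRIN2A. No call in any mark was made in 16 genes (27.1%, against 44.8% of all genes). In 3 genes, CHRNA1 and CHRNA10 among them, no island was found in any of the 8 libraries (5.08%, against 8.48% of all genes).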

How the data were processed

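ChIP-seq was done once per mark and genotype. The authors aligned reads to hg19 with BWA (version not given in the sources used here) and down-sampled each comparison to its smallest library, and the submitters' processing notes name SICER 1.1. The deposited islands give chromosome, start and end, without a count, height or other score, and are named by library; all edges lie on a grid of 200 bp. The merged regions of the series were used only to check that they equal the union of the islands.

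Covered bases were computed over GENCODE 44 genes on GRCh37, body with 5 kb upstream and 2 kb around the start, in Python 3.11.15 with numpy 2.4.6, and figures drawn with matplotlib 3.10.9. The code was run on simulated data with 9682 entries, 200 of them changed, and it recovered 200 and made 0 false calls. That run checks the arithmetic of the call, and the rate of false calls in the deposited islands was not tested. In addition, 472 values equalled those of bedtools 2.31.1. No test was possible with 1 library per condition. Alternatives were another factor, minimum difference, window, scaling, and island length or merging. Named in full were, per mark, the 5 largest gains and losses, genes with an H3K4me3 or H3K9me3 start island in 1 genotype, and the CHRNA5 cluster. Members, lists and rules were chosen with earlier results of these data known. RefSeq promoters came from a GRCh38 table. Values of 5 of the 59 genes and of 1 partner gene, which are among the counts, are not reported here.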

Additional observations from a re-analysis of the deposited data

How the results depend on the processing

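No paired analysis was possible because each mark and genotype has 1 library and the labels give no replicate numbers, and no library could be left out. Under the alternatives, 87 counts and medians stayed close to the value reported (counts within 1.5 times), and 21 moved. With the gene body alone, H3K4me3 losses came to 3 (all genes, 2.22%) and the H3K27me3 median difference to 0.760 points. With 5 kb on both sides of the start, gains came to 0 for H3K4me3 (all genes, 2.79%), 9 for H3K27me3 (15.3%, against 4.11%), 10 for H3K9me3 (16.9%, against 12%) and 3 for H3R8me2a (5.08%, against 15.9%), and H3K27me3 losses to 1 (1.69%, against 2.38%). There GRIK5 turned to -0.6 kb of H3K4me3 and GABRB1 to -1.4 kb of H3K27me3, since their gains lie away from the start. A minimum difference of 5 kb left 1 gain and 0 losses of H3K4me3 (all genes, 1.48% and 0.442%) and 0 losses of H3R8me2a (all genes, 4.07%). A factor of 1.5 gave 1 H3K9me3 loss (all genes, 1.16%). With KO scaled to the length of WT, H3K9me3 had 17 gains and 4 losses, H3R8me2a 2 losses (all genes, 11.9%), the H3K27me3 median difference was 0, and H3K9me3 turned to -0.011 kb in GRM4, -0.0342 kb in GRM8 and -1.78 kb in GRIN2B. H3K9me3 starts in KO numbered 5 with at least 1 kb of the window, 5 within 1 kb and 3 in RefSeq windows (6.98%, against 6.94% of all windows placed). H3R8me2a starts in KO numbered 10 for any coding transcript and 1 in RefSeq windows, where WT had 0 (all windows placed, 33.4% in KO and 26.8% in WT). The RefSeq windows and the values without GRIK4 or GRM4 were chosen after seeing the data. Merging islands within 1 kb or leaving out those under 1 kb changed no count by over 1.5 times. For single genes, 344 values moved little, 96 moved and 5 turned round. Where no reason is given, the cause was not tested.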

Other observations

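Genes that work beside these receptors were read in the same way. Of 29 autosomal glutamate synapse partners, 17 were gains and 0 losses of H3K9me3 (all genes, 28% and 0.884%), and 6 were gains and 1 a loss of H3K27me3 (all genes, 6.16% and 3.39%). For the partner genes, the shares of all genes take no account of gene length. SHANK2, a postsynaptic scaffold, held 534.4 kb of H3K9me3 in KO and 82.6 kb in WT, under 621.1 kb of H3K27me3 in KO and 512.8 kb in WT. GRIP1, which binds AMPA receptors, held 255.3 kb of H3K27me3 in KO and 122.7 kb in WT, SHISA9, an AMPA auxiliary subunit, 133.4 kb in KO and 23.1 kb in WT, and CACNG4, another such subunit, 61.3 kb in KO and 8.6 kb in WT. SLC1A3, the glial glutamate transporter, held 0 kb of H3R8me2a in KO and 41.8 kb in WT.

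Of 16 GABA synapse partners, 9 were gains of H3K9me3, against the same 28% of all genes. For H3K27me3 there were 0 gains and 1 loss, where 6.16% and 3.39% of all genes were called. The loss was GAD1, which makes GABA, with 3 kb in KO and 10.9 kb in WT. SLC6A13, a GABA transporter, held 35.2 kb of H3K9me3 in KO and 7.8 kb in WT. KCTD8, an auxiliary subunit of GABA-B receptors, held 0 kb of H3K4me3 in KO and 2.8 kb in WT. Of 13 cholinergic partners, 6 were gains and 0 losses of H3K9me3 (all genes, 28% and 0.884%). CHAT and SLC18A3, which make and load acetylcholine from a shared locus, held 28.4 and 5.37 kb in KO, against 0 kb in WT for each. BCHE, a cholinesterase, held 1.8 kb of H3K4me3 in KO and 9.6 kb in WT. Of 7 receptor subunits that the pattern leaves out, GABRD (11 kb in KO and 0 kb in WT) and GLRA3 (2.8 kb in KO and 0 kb in WT) were gains of H3K9me3 (all genes, 28%). The genes named here were picked after their values were seen.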
